A study of Mus musculus with 9 samples.

Results

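The genes of lysosome acidification and endosomal sorting were described in 3 groups of splenic dendritic cells (DCs) from normal and leukemic mice. They were chosen by symbol and biotype, with earlier results of these data known. Every protein coding gene was taken whose symbol starts with Atp6v, is Lamp1, Lamp2 or Lamp3, or starts with Vps followed by a digit. This gave 59 of the 54532 genes listed, namely 22 subunits of the vacuolar ATPase (V-ATPase), 3 LAMP genes, 33 Vps genes and Atp6v1fnb, which is named for its place next to Atp6v1f. Of the 59 members, 48 reached 1 FPKM in 3 or more of the 9 samples and were tested, and 11 did not. FPKM divides the reads of each gene by its length and by the size of the library, so that levels of different genes can be set side by side.

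The study asked how DCs that accumulate in the spleen in T cell acute lymphoblastic leukemia (T-ALL) differ from mature conventional DCs (cDCs). N-mDCs were mature cDCs of normal, untreated spleen, T-mDCs were mature cDCs of T-ALL spleen, and T-DCs were the CD11c+ MHCIIlo cells of T-ALL spleen, which the labels call immature DCs. Each group had 3 samples. The mice were C57BL/6J or C57B6.SJL females of 6 to 8 weeks, and the strain of each sample was not given in the sources used here. Leukemia came from marrow cells infected with a retrovirus (MSCV-ICN1-IRES-GFP) that carries the intracellular domain of Notch1. GFP+ leukemia cells were passed to recipients that were not irradiated, and sorting was done on day 15 after enrichment of CD11c+ cells with microbeads. Low surface MHCII was the gate for T-DCs, and the 4 MHCII genes fixed as markers summed to 651 to 2587 FPKM in T-DCs, against 21150 to 30119 in N-mDCs and 13545 to 19456 in T-mDCs. Nothing in the sources used here says whether samples of a group came from separate mice, so p-values measure only the spread between these samples.

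The V-ATPase is a rotary proton pump. Its V1 sector lies in the cytosol and hydrolyses ATP, its V0 sector spans the membrane and carries protons into endosomes and lysosomes, and the sectors can come apart and reassemble. LAMP proteins coat the lysosomal membrane. The Vps proteins, named after yeast vacuolar protein sorting mutants, build the machines that sort cargo between endosomes, lysosomes and the Golgi: ESCRT complexes for degradation, retromer and GARP for retrieval, and HOPS and CORVET for tethering and fusion. In DCs, acidification and sorting set where and how fast ingested antigen is degraded, and acidification is known to be regulated as DCs mature.

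Many lysosomal genes carry the E-box CACGTG near their start, the core of the element that the transcription factors TFEB and TFE3 bind. To show how the E-box lies in the members that carry it, the 250 bases before the transcription start are printed for 3 such members and 1 without it (RefSeq, GRCm38.p6), 5′ to 3′ on the strand of the gene, with each CACGTG in capitals. Lamp1, Atp6v1a and Vps33a represent the LAMP genes, the V-ATPase and the tethering complexes, and Vps18 is a member whose level fell in T-DCs. These 4 were chosen after their values were seen. The windows are chr8:13158911-13159160 (plus strand) for Lamp1, chr16:44139260-44139509 (minus strand) for Atp6v1a, chr5:123573016-123573265 (minus strand) for Vps33a and chr2:119288492-119288741 (plus strand) for Vps18.
Lamp1: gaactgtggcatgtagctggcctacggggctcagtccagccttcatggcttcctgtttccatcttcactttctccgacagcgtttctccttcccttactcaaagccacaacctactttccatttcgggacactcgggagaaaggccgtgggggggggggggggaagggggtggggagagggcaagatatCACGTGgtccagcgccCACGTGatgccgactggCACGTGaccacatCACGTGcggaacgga
Atp6v1a: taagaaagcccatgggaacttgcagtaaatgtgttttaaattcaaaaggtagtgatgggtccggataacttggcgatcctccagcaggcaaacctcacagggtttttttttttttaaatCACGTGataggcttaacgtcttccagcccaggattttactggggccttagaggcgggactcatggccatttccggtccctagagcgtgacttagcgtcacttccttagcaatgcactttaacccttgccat
Vps33a: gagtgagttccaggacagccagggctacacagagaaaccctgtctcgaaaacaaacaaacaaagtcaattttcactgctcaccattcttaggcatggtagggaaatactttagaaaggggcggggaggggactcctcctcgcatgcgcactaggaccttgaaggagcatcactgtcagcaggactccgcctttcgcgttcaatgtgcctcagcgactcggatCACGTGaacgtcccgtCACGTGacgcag
Vps18: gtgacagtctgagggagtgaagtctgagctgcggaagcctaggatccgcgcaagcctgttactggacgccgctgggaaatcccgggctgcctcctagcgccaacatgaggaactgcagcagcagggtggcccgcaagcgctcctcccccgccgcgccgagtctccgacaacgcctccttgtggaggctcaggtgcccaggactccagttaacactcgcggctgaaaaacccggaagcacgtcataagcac

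The Lamp1 window held 4 matches, the first starting 61 and the last 15 bases before the transcription start. Vps33a held 2 matches, starting 28 and 12 bases before the start, and Atp6v1a held 1 match, 131 bases before it. No match lay in the Vps18 window. CACGTG and the longer TCACGTGA, which contains it, are both palindromes, so a match counts for both strands. RefSeq promoters of 300 bases (250 before to 50 after the start) could be matched to 41 of the 59 members, with 49 promoters in all. CACGTG occurred in 10 of these 49 promoters (20.4%), compared with 7.15% of all 32851 promoters. TCACGTGA occurred in 7 of the 49 (14.3%), compared with 0.974% of all promoters. The 9 genes with CACGTG were Lamp1, Atp6v0b, Atp6v0d1, Atp6v0e, Atp6v1a, Vps16, Vps33a, Vps26a and Vps50. A match is a run of letters and does not show that a factor binds there.

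Reads on genes ranged from 15360815 to 18440913 per sample, and 1 read per kilobase of gene equalled 0.0517 to 0.0659 FPKM. The tested members had 35 to 19700 reads each in a sample. Together the 59 members took 0.360 to 0.535% of the reads. Some libraries stood apart. Hemoglobin genes took 3.82 and 3.0% of reads in T-DC samples 2 and 3, but 0.0422% in T-DC sample 1 and at most 0.405% in the other samples. The 10 macrophage markers summed to 4022, 1454 and 862 FPKM in T-DC samples 1 to 3, to 1796, 545 and 547 in T-mDC samples 1 to 3, and to 2363, 4662 and 3012 in N-mDC samples 1 to 3. Among the 48 tested members, T-DC sample 1 was the highest of its group for 36 and T-DC sample 3 the lowest for 32. N-mDC sample 2 was lower than the other N-mDC samples in long genes, with a median log2 difference of -0.61 over the 256 tested genes above 15000 bases. T-mDC samples 2 and 3 were closer to each other than any other pair within a group (chi-square per gene 1.85 on recovered reads, against 8.11 or more). The 3 DC markers summed to 50.9 to 169 FPKM in T-DCs, 215 to 325 in N-mDCs and 232 to 280 in T-mDCs. In the same order, the 5 markers of the cDC1 subset summed to 36.3 to 144, 212 to 275 and 272 to 416 FPKM. The 4 markers of the cDC2 subset summed to 115 to 432, 269 to 311 and 148 to 257 FPKM. The part of these markers in the levels described below was not tested. In bulk samples, fewer cells of a type and less RNA per cell cannot be told apart.

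T-DCs expressed Atp6v1b2, Vps35 and Vps13c at higher levels and Vps37b and Vps18 at lower levels than N-mDCs, and Atp6v0a2 and Vps39 at lower levels than T-mDCs. Values were compared as log2(FPKM + 1) in 1 limma fit over the 9 samples, and a gene was called at a Benjamini-Hochberg adjusted p under 0.05 over all tested genes. Between T-DCs and N-mDCs, 5 of the 48 tested members (10.4%) were called, against 16.4% of all tested genes. The level was higher in T-DCs for 3 members, against 6.10% of all tested genes, and lower for 2, against 10.3%. Between T-DCs and T-mDCs, 2 members (4.17%) were called, Atp6v0a2 and Vps39, both lower in T-DCs, against 14.2% of all tested genes in either direction and 8.79% lower. No member was called higher in T-DCs than in T-mDCs, where 5.44% of all tested genes were. The count was also 0 with limma voom on whole reads, but 1 to 3 under 6 other alternatives and 10 with array weights. In either direction, 9 members had an unadjusted p under 0.05, against 3833 of all 12746 tested genes. Between T-mDCs and N-mDCs, only Vps37b was called (2.08% of tested members), lower in T-mDCs, against 2.21% of all tested genes in either direction, 0.690% higher and 1.52% lower. Whether members were called less often than other genes was not tested. The counts of called members were small, and both shares changed with the settings described below. In this fit, the share of members called was below that of all tested genes in both T-DC comparisons. The T-DC samples enter both of these comparisons, and the N-mDC and T-mDC samples enter 2 comparisons each.

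The medians were close to 0. Over the 48 tested members, the median log2 fold change was 0.01 in T-DCs against N-mDCs (0.05 over all tested genes), -0.02 in T-DCs against T-mDCs (0.07 over all) and 0.07 in T-mDCs against N-mDCs (0.03 over all). In T-DCs against N-mDCs, 24 members lay above 0 and 24 below. The T-DC and N-mDC samples did not overlap for 6 members that were higher (16.0% of all tested genes) and 5 that were lower (16.4% of all). For T-DCs and T-mDCs, these counts were again 6 and 5 (16.8 and 18.1% of all tested genes). For T-mDCs and N-mDCs they were 8 and 3 (19.3 and 15.7% of all). Among the 3 groups, the limma F-test called Atp6v0a2, Vps37b, Vps35, Vps18 and Vps13c, that is 5 of 48 members, against 18.0% of all tested genes.

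**Figure D1:**
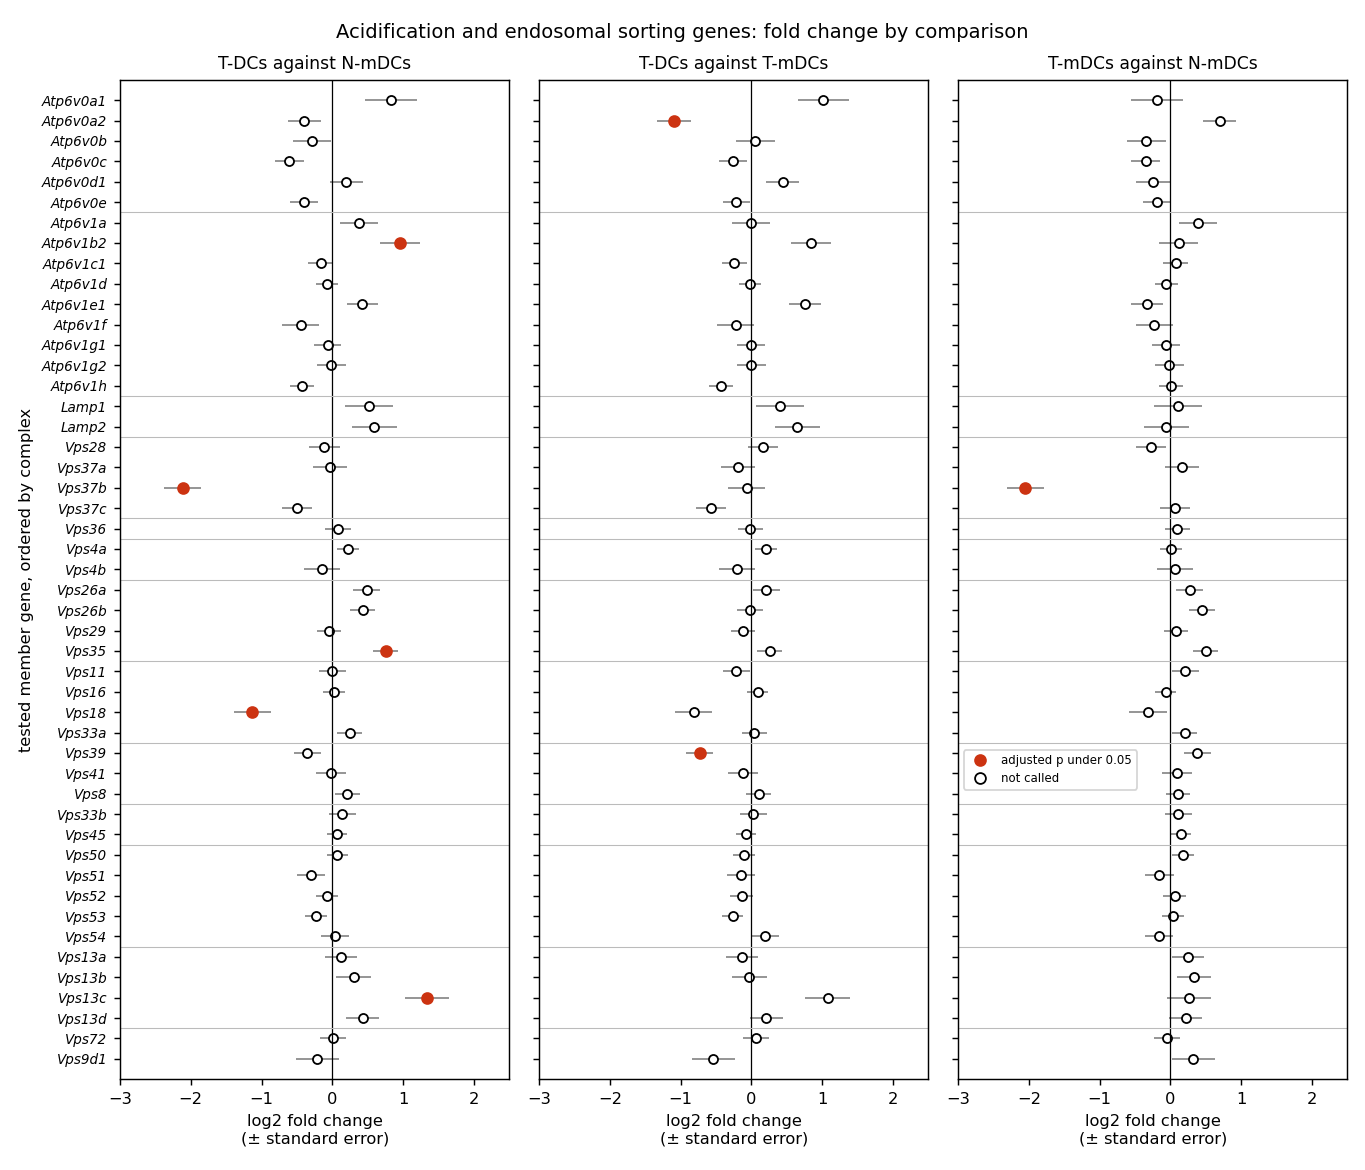
The 48 tested members are drawn by complex on the vertical axis, with the log2 fold change on the log2(FPKM + 1) scale on the horizontal axis and its standard error as a bar, in 3 panels: T-DCs compared first with N-mDCs and then with T-mDCs, and last T-mDCs compared with N-mDCs (3 samples per group). Filled points have a limma adjusted p under 0.05: 5, 2 and 1 members, among which Vps37b lies farthest from 0 at -2.11 and -2.05.

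In the V0 sector, T-DCs expressed lower levels of a single member, the a subunit isoform Atp6v0a2, than T-mDCs. Of 9 V0 genes, 6 were tested and 1 was called in 1 comparison. The summed FPKM of the 9 genes was 208 to 321 in T-DCs, against 263 to 334 in N-mDCs and 238 to 262 in T-mDCs. T-DCs overlapped both other groups, and every T-mDC sample lay below every N-mDC sample. Atp6v0b, which encodes a proteolipid of the rotating membrane ring, had the highest mean level, with 106 ± 23.8 FPKM in N-mDCs, 89.2 ± 32.7 in T-DCs and 82.3 ± 0.816 in T-mDCs (SD, n = 3 each). It was not called (limma adjusted p of 0.486 in T-DCs against N-mDCs and 0.915 against T-mDCs).

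Atp6v0a2 encodes an isoform of the a subunit, the large membrane subunit that steers the pump to different compartments (a2 is best known from the Golgi and endosomes). It is at chromosome 5, 124628576 to 124724455 (plus strand, mm10). With values of a group listed in the order of samples 1 to 3, its level was 14.4, 9.24 and 7.98 FPKM in T-DCs, 19.2, 24.5 and 25.5 in T-mDCs, and 14.5, 11.6 and 15.4 in N-mDCs. Every T-DC sample lay below every T-mDC sample, while T-DCs and N-mDCs overlapped. T-DCs expressed lower Atp6v0a2 than T-mDCs (log2 fold change -1.09 ± 0.24 SE, limma adjusted p = 0.0196). The difference from N-mDCs was -0.40 ± 0.24 (adjusted p = 0.258), and T-mDCs were above N-mDCs by 0.70 ± 0.24 (adjusted p = 0.184). The call was lost without T-DC sample 2 or 3 (adjusted p of 0.0723 and 0.0552) or without T-mDC sample 2 or 3 (0.0974 and 0.0993). Without both T-DC samples that are rich in hemoglobin the log2 fold change was -0.64 (adjusted p = 0.146). With the mean erythroid marker level as a covariate it was -0.34 (adjusted p = 0.543), and the call was lost in 8 of 21 alternatives in all.

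Its paralog Atp6v0a1 split the T-DC samples. It had 7.65, 23.3 and 21.1 FPKM in T-DC samples 1 to 3, against 7.84, 8.55 and 8.85 in N-mDCs and 8.88, 6.56 and 6.51 in T-mDCs. T-DC sample 1 was thus at the level of the other groups, and only T-DC samples 2 and 3 were above. Atp6v0a1 was not called in T-DCs against N-mDCs (adjusted p = 0.141) or T-mDCs (0.0964). The ratio of Atp6v0a1 to Atp6v0a2 was 0.533, 2.52 and 2.64 in T-DC samples 1 to 3, 0.539, 0.734 and 0.575 in N-mDCs, and 0.463, 0.267 and 0.255 in T-mDCs. The 10 erythroid markers summed to 612, 58484 and 42924 FPKM in T-DC samples 1 to 3, so both samples with a high ratio were those with high erythroid markers. N-mDC sample 2, the next highest, had 5364. The 7 neutrophil markers split the T-DC samples in the same way, with sums of 8.59, 4322 and 1513 FPKM, against at most 661 in the other groups. All 10 erythroid and all 7 neutrophil markers were higher in T-DC samples 2 and 3 than in the other 7 samples. Only the neutrophil markers Elane and Mpo were at 0 in any sample (4 and 1 samples). The part of these markers in the ratio was not tested. Tcirg1, which encodes the a3 isoform of this subunit, lies outside the symbol rule, so the V0 sum and this ratio leave it out. Limma voom did not call Tcirg1 in T-DCs against N-mDCs (-1.04, adjusted p = 0.0677) or T-mDCs (-0.87, adjusted p = 0.1185).

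The other V0 members did not pass the test in any comparison. Atp6v0c, which encodes the main proteolipid of the ring, was 35.2, 37.6 and 44.7 FPKM in N-mDCs and 31.7, 25.5 and 19.9 in T-DCs, which did not overlap (adjusted p = 0.0703). Its processed copy Atp6v0c-ps2 is listed at 1.34 to 6.68 FPKM, and how reads shared by both were assigned was not given in the sources used here. Atp6v0d1 and Atp6v0e, subunits d and e, had means of 60.3 to 82.0 and 37.2 to 49.1 FPKM over the 3 groups. The isoforms known from other tissues were below the filter: Atp6v0a4 (kidney and inner ear) reached at most 0.291 FPKM, Atp6v0e2 at most 0.0685, and Atp6v0d2, known from osteoclasts and macrophages, at most 1.57, in T-DC sample 2.

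In the V1 sector, only Atp6v1b2 was called, higher in T-DCs than in N-mDCs. Its 13 genes summed to 242 to 371 FPKM in T-DCs, against 255 to 356 in N-mDCs and 266 to 304 in T-mDCs, and 9 of them were tested. Atp6v1b2 encodes the B subunit isoform found in most cells, part of the ring that binds nucleotide. The gene spans 69088646 to 69113711 on the plus strand of chromosome 8. It was at 25.0, 25.8 and 26.4 FPKM in N-mDCs, 71.8, 49.4 and 36.8 in T-DCs, and 39.0, 23.6 and 23.6 in T-mDCs. All T-DC samples were above all N-mDC samples, and T-DC sample 3 lay below T-mDC sample 1. T-DCs expressed higher Atp6v1b2 than N-mDCs by 0.95 ± 0.28 on the log2 scale, with a limma adjusted p of 0.04998 that is just inside the threshold. Against T-mDCs the difference was 0.84 ± 0.28 (adjusted p = 0.0804). The call was lost in 15 of 21 alternatives, among them leaving out any N-mDC sample, T-DC sample 1 or 2, or T-mDC sample 2 or 3 (adjusted p from 0.0524 to 0.133). T-DC sample 1, with the highest level, also had the highest macrophage markers of its group, and their part in the result was not tested.

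Atp6v1e1, which encodes subunit E of the peripheral stalk, was at 32.9, 39.1 and 30.3 FPKM in T-DCs and at 25.1, 17.5 and 17.2 in T-mDCs. The groups did not overlap, but the difference of 0.76 ± 0.22 missed the threshold (adjusted p = 0.0558). Atp6v1h, the regulatory subunit H, was lower in all T-DC samples (6.73, 5.18 and 4.33 FPKM) than in any sample of N-mDCs (7.13 to 7.83) or T-mDCs (7.16 to 7.80), with adjusted p-values of 0.116 and 0.132. Atp6v1f had the highest mean level of the sector, with 84.5 ± 23.8 FPKM in T-DCs, 116 ± 32.1 in N-mDCs and 96.0 ± 2.01 in T-mDCs. The catalytic subunit gene Atp6v1a had 19.7 ± 6.24, 14.7 ± 3.37 and 19.4 ± 3.94 FPKM in the same order (adjusted p = 0.343 and 0.984 in the T-DC comparisons). Of the remaining tested subunits, none was called. Atp6v1g1 and Atp6v1g2, isoforms of the stalk subunit G, had means of 77.0 to 81.1 and 1.37 to 1.40 FPKM. Atp6v1d, of the central shaft, and Atp6v1c1, subunit C, had means of 16.8 to 17.6 and 10.4 to 12.3 FPKM. Atp6v1b1 was listed at 0 in all 9 samples, and Atp6v1c2, Atp6v1e2 and Atp6v1g3, which are known from restricted tissues, had at most 3 reads in a sample. Atp6v1fnb reached at most 9 reads in a sample.

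**Figure D2:**
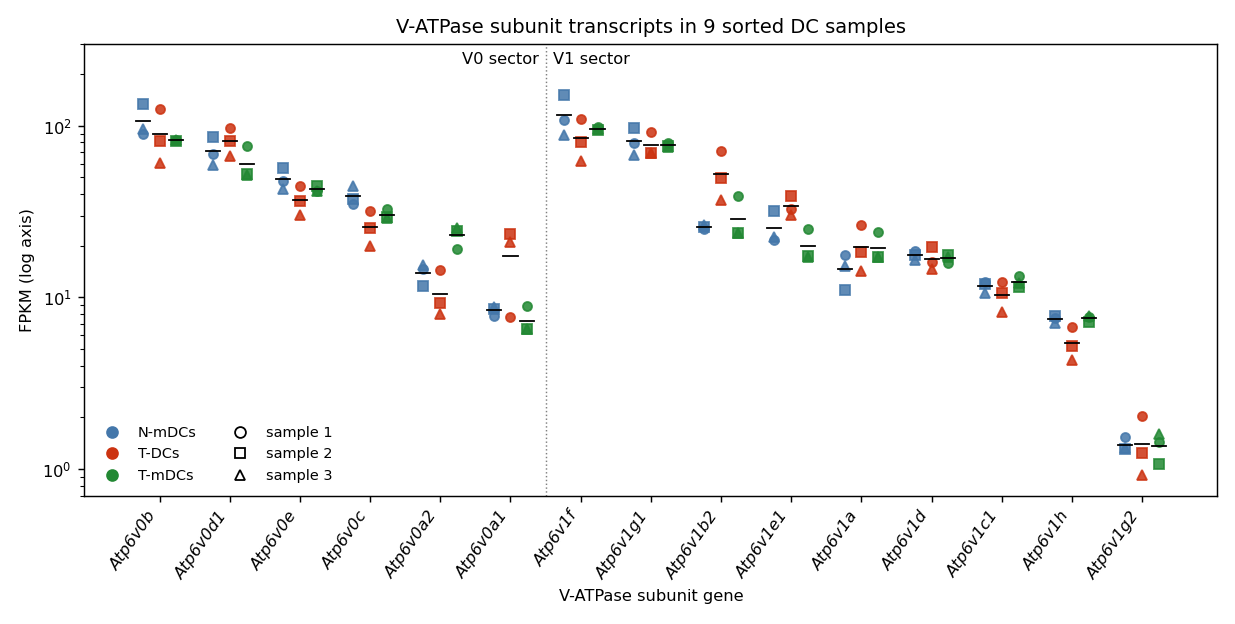
FPKM (vertical axis, log scale) is shown for the tested V-ATPase subunits in each sample, with 1 symbol per sample number, 1 colour per group and a line at each group mean. Atp6v0a1 stands out in T-DC samples 2 and 3 (23.3 and 21.1 FPKM), Atp6v0a2 is lower in T-DCs than in T-mDCs, and Atp6v1b2 is higher in T-DCs than in N-mDCs.

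Lamp1 was the most abundant member. Lamp1 and Lamp2 encode heavily glycosylated proteins of the lysosomal membrane. Lamp1 was at 411, 246 and 173 FPKM in T-DC samples 1 to 3, at 281, 163 and 165 in T-mDC samples 1 to 3, and at 176, 196 and 172 in N-mDCs. The first sample of each leukemic group was the highest, and T-DC sample 3 was within the range of N-mDCs. The log2 fold changes of T-DCs were 0.52 ± 0.34 against N-mDCs (adjusted p = 0.301) and 0.41 ± 0.34 against T-mDCs (adjusted p = 0.453). Lamp2 was also highest in the first sample of each leukemic group, with 34.0, 22.1 and 15.4 FPKM in T-DCs and 19.1, 11.7 and 12.4 in T-mDCs, whereas in N-mDCs, at 12.9, 12.9 and 18.9, sample 3 was the highest (adjusted p = 0.208 and 0.204 in the T-DC comparisons). The macrophage markers were also highest in sample 1 of T-DCs and of T-mDCs. In N-mDC samples 1 to 3 the macrophage markers summed to 2363, 4662 and 3012 FPKM. Their part in the LAMP levels was not tested. Lamp3, also called DC-LAMP and known from mature human DCs, was nearly absent in all groups, at most 0.191 FPKM (10 reads).

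The strongest change of any member was in ESCRT-I, the complex that recognises ubiquitylated cargo on endosomes, and it concerned a single isoform. VPS37 is an ESCRT-I subunit with 4 paralogous genes, of which Vps37a, Vps37b and Vps37c were tested. Vps37b (chromosome 5, 124004641 to 124032270, minus strand) was at 46.1, 52.0 and 79.6 FPKM in N-mDCs, at 17.0, 11.7 and 9.80 in T-DCs, and at 11.5, 13.7 and 14.4 in T-mDCs. Both leukemic groups lay far below N-mDCs without overlap, and overlapped each other. Some markers of other cells and of the cDC2 subset were also highest in N-mDCs. All 5 NK cell markers, 3 of 5 B-lineage markers and 3 of 4 plasmacytoid DC (pDC) markers were higher in every N-mDC sample than in every sample of both leukemic groups, and none of these markers was at 0 in any sample. The same separation was seen for 3 of 4 MHCII markers and for 2 of 4 cDC2 markers, Irf4 and Clec10a. It was also seen for 2 of 8 T-lineage and 1 of 10 macrophage markers, but for 0 DC, cDC1, erythroid or neutrophil markers. The NK markers summed to between 34.9 and 106 FPKM in N-mDCs, against between 0.839 and 14.3 in T-DCs, with T-mDCs at 1.08 to 2.19. The B-lineage markers summed to 207 to 283, 31.2 to 88.7 and 49.4 to 180 FPKM, and the pDC markers to 186 to 430, 102 to 149 and 55.9 to 90.8, in the same order. The part of any of these markers in the level of Vps37b was not tested. Vps37b was lower in T-DCs, with a log2 difference from N-mDCs of -2.11 ± 0.26 (limma adjusted p = 0.00197). It was also lower in T-mDCs than in N-mDCs, with a log2 difference of -2.05 ± 0.26 (limma adjusted p = 0.0118). T-DCs and T-mDCs differed by -0.06 ± 0.26 (adjusted p = 0.89). The call between T-DCs and N-mDCs held in all 21 alternatives. That between T-mDCs and N-mDCs was lost without N-mDC sample 2 (adjusted p = 0.0561) and without T-mDC sample 2 or 3 (0.0863 and 0.0797). It was also lost with T-mDC samples 2 and 3 averaged into 1 sample (limma adjusted p = 0.0870).

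The other VPS37 paralogs were not called. Vps37c was at 20.4, 25.0 and 20.3 FPKM in N-mDCs, 19.0, 14.5 and 12.3 in T-DCs and 18.6, 25.9 and 24.9 in T-mDCs (adjusted p = 0.127, 0.106 and 0.898 in the 3 comparisons). Vps37a had means of 5.46 to 6.20 FPKM, and Vps37d stayed below the filter (at most 0.720 FPKM). The ratio of Vps37b to Vps37c was 2.26, 2.08 and 3.93 in N-mDCs, 0.899, 0.807 and 0.797 in T-DCs, and 0.619, 0.529 and 0.580 in T-mDCs. Vps37b was thus the more abundant of this pair in every N-mDC sample and the less abundant in every sample of leukemic spleen. Of the exon bases of Vps37b, 32.9% are shared with Hip1r on the opposite strand, and strandedness of the counting was not given in the sources used here. Hip1r had 11.8 ± 0.342 FPKM in N-mDCs, 10.9 ± 3.81 in T-DCs and 8.38 ± 1.81 in T-mDCs.

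The other ESCRT members were not called. Vps28, another ESCRT-I subunit, had means of 26.1 to 32.4 FPKM. Vps36 of ESCRT-II had means of 12.8 to 13.7 FPKM. Vps25, its partner in ESCRT-II, was listed at only 0.0335 to 0.428 FPKM, and 67.2% of its exon bases are shared with Ramp2 on the same strand, which itself had at most 0.0941 FPKM. The level of Vps25 is therefore uncertain. The ATPases that take ESCRT-III apart, Vps4a and Vps4b, had means of 16.4 to 19.3 and 11.9 to 13.3 FPKM.

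**Figure D3:**
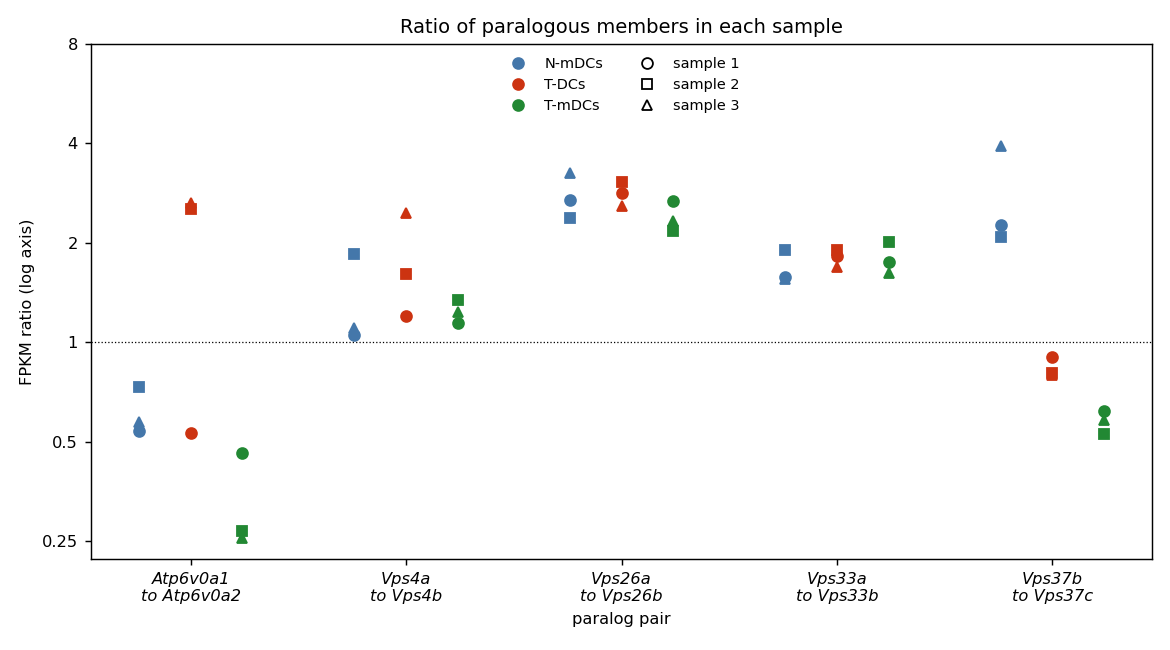
The ratio of FPKM (vertical axis, log scale) is plotted for 5 pairs of paralogous members in each sample, by group (colour) and sample number (symbol), with a dotted line at a ratio of 1. Vps37b to Vps37c falls from 2.08 to 3.93 in N-mDCs to below 1 in all T-DC and T-mDC samples, while Atp6v0a1 to Atp6v0a2 is above 2 in T-DC samples 2 and 3 alone.

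Retromer, which retrieves receptors from endosomes, had higher levels of its VPS35 subunit gene in T-DCs than in N-mDCs. Vps35 encodes the long scaffold on which the other subunits sit, and lies at 85260392 to 85299802 on the minus strand of chromosome 8. It was at 15.6, 10.4 and 12.3 FPKM in N-mDCs, 20.2, 23.6 and 22.3 in T-DCs, and 19.1, 17.6 and 17.9 in T-mDCs. The 3 groups did not overlap, with N-mDCs lowest and T-DCs highest. T-DCs were above N-mDCs by 0.76 ± 0.18 on the log2 scale (limma adjusted p = 0.0239). T-DCs were above T-mDCs by 0.26 ± 0.18 (adjusted p = 0.362) and T-mDCs above N-mDCs by 0.50 ± 0.18 (adjusted p = 0.206). The call was lost in 12 of 21 alternatives, among them leaving out sample 2 or 3 of any group (adjusted p from 0.0503 to 0.0855). Without both hemoglobin-rich T-DC samples the log2 fold change was 0.64 (adjusted p = 0.153), and with the erythroid covariate it was 0.78 (adjusted p = 0.111). Orc6 on the opposite strand, which shares 1.92% of the exon bases of Vps35, was at 4.75, 25.9 and 35.4 FPKM in T-DC samples 1 to 3.

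The other core subunits of retromer were not called. Vps26a, an arrestin-like subunit and the most abundant of the complex, was at 29.2, 22.4 and 26.1 FPKM in N-mDCs and 44.5, 33.3 and 32.5 in T-DCs, which did not overlap (0.48 ± 0.19, adjusted p = 0.107). Its paralog Vps26b was at 10.8, 9.42 and 8.01 FPKM in N-mDCs and 15.7, 10.9 and 12.6 in T-DCs (0.43 ± 0.18, adjusted p = 0.131). Both VPS26 genes and Vps35 thus lay higher in every T-DC sample than in every N-mDC sample, as did 16.0% of all tested genes. In T-mDCs, Vps26a was at 34.7, 28.8 and 30.7 FPKM and Vps26b at 13.0, 13.3 and 13.2. Vps26b and Vps35 were thus also higher in every T-mDC sample than in every N-mDC sample, whereas Vps26a overlapped. The ratio of Vps26a to Vps26b was between 2.17 and 3.26 in all samples. Vps29 had means of 7.03 to 7.66 FPKM and was not called.

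HOPS and CORVET, which tether late and early endosomes before fusion, share a core of VPS11, VPS16, VPS18 and VPS33A. Of the 4 core genes only Vps18 was called. It lies at 119288740 to 119298453 on the plus strand of chromosome 2 and was at 17.4, 25.9 and 23.3 FPKM in N-mDCs, 13.4, 8.99 and 6.92 in T-DCs, and 14.1, 19.4 and 19.2 in T-mDCs. Every T-DC sample was below every sample of both other groups. Vps18 was lower in T-DCs, with a log2 difference from N-mDCs of -1.13 ± 0.26 (limma adjusted p = 0.0227). Against T-mDCs the difference was -0.82 ± 0.26 and missed the threshold (limma adjusted p = 0.0723). Limma voom on whole reads did call Vps18 lower in T-DCs than in T-mDCs (-1.02, adjusted p = 0.0397). The limma call against N-mDCs was lost without N-mDC sample 2 or 3 or without T-DC sample 2 or 3 (adjusted p from 0.0652 to 0.0759). Without both hemoglobin-rich T-DC samples the log2 fold change was -0.67 (adjusted p = 0.202), and with the erythroid covariate it was -0.81 (adjusted p = 0.197).

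The partners of VPS18 in the core were not called. Vps16, the most abundant of them, had 23.0 ± 1.91 FPKM in T-DCs, 22.6 ± 1.71 in N-mDCs and 21.6 ± 0.912 in T-mDCs. In the same order, Vps11 had 15.8 ± 3.88, 15.6 ± 1.07 and 18.2 ± 0.754 FPKM, and Vps33a had 11.9 ± 2.38, 9.77 ± 0.742 and 11.4 ± 0.921. Their log2 fold changes in T-DCs against N-mDCs were 0.02 ± 0.15, 0.00 ± 0.19 and 0.25 ± 0.18 (limma adjusted p of 0.933, 0.999 and 0.342). Vps18 was therefore near Vps16 in N-mDCs, and its mean of 9.78 ± 3.32 FPKM in T-DCs was the lowest of the 4 core genes.

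Of the subunits specific to HOPS (VPS39 and VPS41) or CORVET (VPS8), Vps39 was called. It encodes a subunit of HOPS that binds Rab7 and is at 120316461 to 120353137 on the minus strand of chromosome 2. Its level was 8.82, 6.73 and 5.82 FPKM in T-DCs, 11.6, 12.6 and 12.9 in T-mDCs, and 10.7, 7.86 and 9.38 in N-mDCs. Every T-DC sample lay below every T-mDC sample, whereas T-DC sample 1 lay above N-mDC sample 2. Vps39 was lower in T-DCs than in T-mDCs, with a log2 difference of -0.73 ± 0.19 (limma adjusted p = 0.0352), and against N-mDCs the difference was -0.35 ± 0.19 (adjusted p = 0.212). The call was lost in 12 of 21 alternatives, among them leaving out N-mDC sample 3, T-DC sample 2 or 3, or any T-mDC sample (adjusted p from 0.0589 to 0.148). Without both hemoglobin-rich T-DC samples the log2 fold change was -0.44 (adjusted p = 0.224), and with the erythroid covariate it was -0.20 (adjusted p = 0.695). Vps41 and Vps8 had means of 10.1 to 10.9 and 2.99 to 3.65 FPKM and were not called.

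Members with roles at the Golgi and in fusion did not pass the test. GARP and EARP, which tether vesicles at the Golgi and at recycling endosomes, had 5 tested genes. Vps52, the most abundant, had 18.9 ± 1.85 FPKM in T-DCs, 20.01 ± 1.99 in N-mDCs and 20.8 ± 1.37 in T-mDCs. Vps53 was at 8.50, 6.91 and 6.94 FPKM in T-DCs and at 9.11, 8.65 and 9.62 in T-mDCs, which did not overlap (-0.27 ± 0.15, adjusted p = 0.281). Vps50, Vps51 and Vps54 had group means of 2.17 to 2.59, 1.14 to 1.65 and 6.54 to 7.64 FPKM. Vps33b and Vps45, which encode proteins of the Sec1/Munc18 family that act on SNAREs, had means of 5.89 to 6.62 and 3.98 to 4.50 FPKM.

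The VPS13 genes encode very large proteins that bridge membranes and carry lipids between them. Vps13c, whose protein acts at contacts of the endoplasmic reticulum with late endosomes and lysosomes, was the one called, at 67840396 to 67995638 on the plus strand of chromosome 9. It was at 2.17, 0.594 and 2.90 FPKM in N-mDCs, 5.69, 4.94 and 6.93 in T-DCs, and 2.58, 1.93 and 2.22 in T-mDCs. All T-DC samples were above all samples of both other groups. Vps13c was higher in T-DCs than in N-mDCs by 1.33 ± 0.31 on the log2 scale (limma adjusted p = 0.0237), and against T-mDCs the difference was 1.07 ± 0.31 (adjusted p = 0.0526). The low value stood in N-mDC sample 2, which was low in long genes as described above. The part of gene length in it was not tested. Without this sample Vps13c was higher in T-DCs than in N-mDCs by 0.95 (adjusted p = 0.0256). The call was lost in 8 of 20 alternatives, among them no filter, TPM and only the groups compared. Leaving out N-mDC sample 1, T-DC sample 2 or T-DC sample 3 also lost it (adjusted p from 0.0547 to 0.0758). So did the erythroid covariate (1.57, adjusted p = 0.0833).

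The other VPS13 genes were lowest in N-mDC sample 2 as well. Vps13d, the longest member, was at 3.33, 1.51 and 3.41 FPKM in N-mDCs, 3.71, 4.33 and 3.63 in T-DCs and 2.96, 3.32 and 3.37 in T-mDCs (0.43 ± 0.23 against N-mDCs, adjusted p = 0.217). Vps13a and Vps13b had means of 1.76 to 2.20 and 3.12 to 4.0 FPKM and were not called. The last 2 Vps genes, Vps9d1 and Vps72, were not called either. Vps9d1 contains a VPS9 domain, which activates Rab5 in other proteins, and had means of 10.7 to 14.9 FPKM. Vps72 belongs to a chromatin remodelling complex and shares only its name with the sorting genes, with means of 10.7 to 11.2 FPKM.

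**Figure D4:**
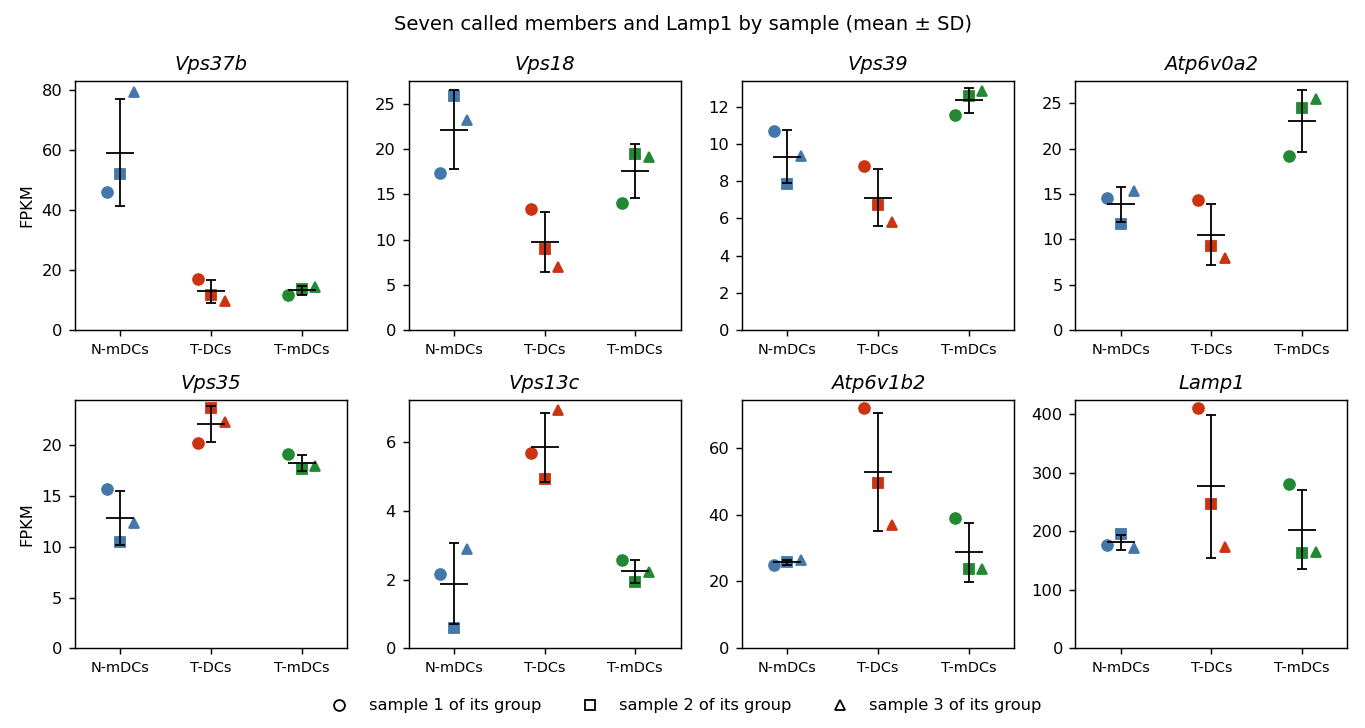
FPKM (vertical axis, 1 scale per gene) of the 7 members called in any comparison and of Lamp1 is shown by group, with 1 point per sample, a line at the group mean and bars of 1 SD (n = 3). Vps37b is high in N-mDCs alone (46.1 to 79.6 FPKM), Vps13c is high in T-DCs alone (4.94 to 6.93 FPKM), and Atp6v0a2, Vps39 and Vps18 have their lowest means in T-DCs.

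The E-box was also set beside the fold changes. Of the 9 tested members with CACGTG, 0 were called in any of the 3 comparisons by limma or by limma voom on whole reads. Among all tested genes 16.4, 14.2 and 2.21% were called by limma, so that in 9 genes the count is too small to set them apart. An unadjusted p under 0.05 was found for 1 of them in T-DCs against N-mDCs and for 0 in the other comparisons. Among all 12746 tested genes it was found for 4472, 3833 and 2130 in the 3 comparisons. The log2 fold changes of the 9 members in T-DCs against N-mDCs ran from -0.40 to 0.52 with a median of 0.20. Of the 22 tested members with a matched promoter without CACGTG, only Vps18 was called when T-DCs were compared with N-mDCs by limma, and their log2 fold changes ran from -1.13 to 0.83 with a median of 0.01. In T-DCs against T-mDCs the medians were 0.05 with and -0.05 without CACGTG. The members without a matched promoter include Vps37b, Vps35, Vps39, Vps13c, Atp6v0a2 and Atp6v1b2.

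Genes that work with the members but lie outside the rule were described by 7 lists. Of 109 such gene entries, 103 were tested. T-DCs expressed higher levels of 2 and lower levels of 3 than N-mDCs, against 16.4% of all tested genes called, with a median log2 fold change of 0.01. T-DCs expressed higher levels of 0 and lower levels of 5 than T-mDCs, against 14.2%, with a median of 0.03. Between T-mDCs and N-mDCs 0 were called by limma or limma voom. An unadjusted p under 0.05 was found for 11, against 2130 of all 12746 tested genes. Among the V-ATPase partners, 1 of 11 tested was called. Rogdi, which encodes a partner of the rabconnectin complex that helps V1 and V0 assemble, was at 27.4, 15.4 and 11.7 FPKM in T-DCs, 151, 126 and 102 in N-mDCs and 116, 158 and 153 in T-mDCs. T-DCs lay far below both groups of mature cDCs. The log2 differences were -2.80 ± 0.31 against N-mDCs (limma adjusted p = 0.0015) and -2.97 ± 0.31 against T-mDCs (adjusted p = 0.00178). The 3 DC markers, Itgax, Flt3 and Zbtb46, were also lower in every T-DC sample than in every sample of both other groups. Their part in the level of Rogdi was not tested.

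Among the 19 tested genes of other ESCRT subunits, Mvb12a of ESCRT-I was lower in T-DCs relative to N-mDCs (-1.01 ± 0.23, limma adjusted p = 0.0213), with 12.7, 9.60 and 7.71 FPKM in T-DCs and 18.2, 27.8 and 17.9 in N-mDCs. Hgs, an ESCRT-0 subunit, is listed under 2 identifiers, each at or near 0. Among 16 tested genes of retromer partners, retriever and the WASH complex, which builds actin on endosomes, Washc1 was lower in T-DCs than in T-mDCs (-0.85 ± 0.18, adjusted p = 0.0204). Among 15 tethering and fusion partners, 3 were called lower in T-DCs than in T-mDCs, against 8.79% of all tested genes. Uvrag, a subunit of a lipid kinase complex on endosomes, was lower than in T-mDCs (-1.31 ± 0.32, adjusted p = 0.0306) and than in N-mDCs (-1.48 ± 0.32, adjusted p = 0.0183). Stx7, a SNARE of late endosomes, had a log2 fold change of -1.36 ± 0.33 (adjusted p = 0.0284) and Rubcn, which binds Uvrag, one of -1.15 ± 0.27 (adjusted p = 0.0256). Both were lower in T-DCs than in T-mDCs.

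In the other lists, the genes called by limma were higher in T-DCs than in N-mDCs, where 6.10% of all tested genes were. Igf2r, the receptor that carries enzymes with mannose 6-phosphate to lysosomes and a retromer cargo, was the 1 called of 10 sorting receptors. It was at 7.14, 5.86 and 5.44 FPKM in T-DCs and 2.53, 1.64 and 2.66 in N-mDCs (1.13 ± 0.26, limma adjusted p = 0.0214). M6pr, another mannose 6-phosphate receptor, went the other way by limma voom (-0.62 against N-mDCs, adjusted p = 0.0725). Against T-mDCs limma voom called M6pr lower (-0.84, adjusted p = 0.0278), while limma called 0 of the 10 sorting receptors. Rragd, a GTPase that acts on mTORC1 at the lysosome, was the 1 called of 15 genes of lysosomal transcription and mTORC1 (1.20 ± 0.33, adjusted p = 0.0418), with 1.77, 5.36 and 3.41 FPKM in T-DCs. Of 17 tested genes of other lysosomal membrane proteins, 0 were called in the T-DC comparisons by limma, against 16.4 and 14.2% of all tested genes. Limma voom called 0 against N-mDCs and 1 against T-mDCs (Cd63, a tetraspanin of late endosomes). By limma, 6 and 5 of the 17 had an unadjusted p under 0.05, against 4472 and 3833 of all 12746 tested genes.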

How the data were processed

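RNA of 3 N-mDC, 3 T-DC and 3 T-mDC samples, grouped by the labels, was sequenced from standard Illumina libraries. The authors deposited FPKM values for 54532 genes. The genome build is mm10 per the submitters' processing notes, and the aligner, counter, annotation and strandedness are not given in the sources used here. The product of FPKM and gene length came out as whole reads (15360815 to 18440913 per sample), to within 5.72e-05 of a read. These depths cover counting error only.

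The 12746 genes that reached 1 FPKM in 3 or more samples were kept, and log2(FPKM + 1) was fitted in R 4.3.3 by limma 3.58.1 (linear model, 3 contrasts, empirical Bayes with trend, F-test over the groups), with Benjamini-Hochberg adjustment over all of these genes and a threshold of 0.05. The pseudocount of 1 understates fold changes of low genes. The procedure was tested on simulated data. Exon overlaps were taken from GENCODE M21, where 54 of the 59 members have the same start and end as in the deposited table, and promoters from RefSeq (GRCm38.p6).

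Members and lists were chosen with earlier results of these data known. Genes named are the members called in any comparison, the most abundant member of each complex, the members below the filter and, in each list outside the rule, up to 4 genes called in a T-DC comparison. Other members are given to account for each complex and were chosen after their values were seen. Atp6v1fnb and a misspelt Vps35l entry were added to the lists after the table was seen.

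Alternatives were a pseudocount of 0.1, no filter, a filter of 5 FPKM, TPM, median-of-ratios scaling, only the groups compared, array weights, a replicate block, T-mDC samples 2 and 3 averaged into 1 sample, an erythroid covariate, limma voom on whole reads and leaving out each sample. Leaving out T-DC samples 2 and 3 together was chosen after seeing the data. The single-cell and functional data of the study were not analysed here.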

Additional observations from a re-analysis of the deposited data

How the results depend on the processing

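None of the 8 called differences changed direction in the alternatives that gave it a value (20 for Vps13c, which the filter of 5 FPKM removes, and 21 for each of the others), and Vps37b in T-DCs against N-mDCs was called in all of them. The number of called members was small under most settings and large under array weights, which also called 58.6 and 70.3% of all genes in the T-DC comparisons. In T-DCs against N-mDCs 5 members were called, and shares of all genes called are given in brackets. The count was 3 with no filter (5.16%), 2 with TPM (11.8%) and 1 with only the groups compared (8.39%). It was 19 with array weights (58.6%), 3 with T-mDC samples 2 and 3 averaged (11%) and 1 with the erythroid covariate (4.33%). When each sample was left out in turn it was 1 to 11 (7.12 to 39.5%), with 11 without T-DC sample 1 (39.5%). In T-DCs against T-mDCs, where 2 were called, the count was 1 with no filter (4.43%). It was 1 with only the groups compared (8.13%), where Atp6v0a2 and Vps39 were both lost. It was 27 with array weights (70.3%), 0 with those T-mDC samples averaged (3.9%) and 0 with the erythroid covariate (0 of all 12746 genes). When each sample was left out it was 0 to 9 (3.87 to 35.1%). In T-mDCs against N-mDCs, where 1 was called, it was 9 with array weights (33.8%) and 0 with those T-mDC samples averaged (0.0874%). When each sample was left out it was 0 to 2 (0.0875 to 8.11%). By the F-test, where 5 were called, it was 1 with no filter, 2 with TPM, 27 with array weights, 1 each with those T-mDC samples averaged, with the erythroid covariate and without T-DC samples 2 and 3, and 1 to 11 when each sample was left out.

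For the genes outside the rule, shares of all genes called are again in brackets. In T-DCs against N-mDCs 5 were called, and this became 3 with no filter (5.16%), with TPM (11.8%) and with only the groups compared (8.39%). It became 55 with array weights (58.6%), 1 with the erythroid covariate (4.33%), and 1 to 33 when each sample was left out (7.12 to 39.5%). In T-DCs against T-mDCs, 5 became 2 with no filter (4.43%) or only the groups compared (8.13%) and 66 with array weights (70.3%). It became 1 with those T-mDC samples averaged (3.9%), 0 with the erythroid covariate (0%) and 8 with limma voom (15%). When each sample was left out it was 1 to 25 (3.87 to 35.1%). In T-mDCs against N-mDCs, 0 became 4 with only the groups compared (6.67%) and 32 with array weights (33.8%). When each sample was left out it was 0 to 5 (0.0875 to 8.11%). TPM moved the median log2 fold change of all tested genes from 0.07 to -0.23 in T-DCs against T-mDCs and from 0.03 to 0.21 in T-mDCs against N-mDCs. The cause of these changes was not tested. Genes with few reads are limited by depth, since 1 read was worth 0.0517 to 0.0659 FPKM on 1 kilobase.

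Sample numbers were shared by the groups, but deviations of samples with the same number correlated between -0.47 and 0.27, so the numbers were not taken to pair the samples. With the replicate block, 2 members were called in T-DCs against N-mDCs (10.8% of all genes) and 2 in T-DCs against T-mDCs (9.83%). In T-mDCs against N-mDCs 1 was called (0.612%), and 2 were called by the F-test. Genes outside the rule that were called numbered 4, 3 and 0. The members called in T-DCs against T-mDCs were 1 higher and 1 lower with the block, and 0 higher and 2 lower without it. Under the block the calls of Atp6v1b2, Vps35, Vps18 and Vps39 were lost (adjusted p of 0.0538, 0.0594, 0.0545 and 0.0672).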
